A study of Homo sapiens with 6 samples.

Results

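The AP-1 and early growth response factors were followed in MDA-MB-231 cells, a cell line established from a triple-negative breast cancer and labelled basal, after depletion of the zinc finger factor ZNF148. The members were 10 listed gene symbols (FOS, FOSB, FOSL1, FOSL2, JUN, JUNB, JUND, EGR1, BATF3 and IER3), found wherever a symbol occurred in the gene names of the deposited table. All 10 were found among 24108 rows, and 9 of them reached the mean of 1 FPKM over the 6 samples that a row needed to be tested. FPKM counts sequenced fragments after division by transcript length and library size. The 3 shControl replicates carried a lentiviral LKO hairpin against luciferase, and the 3 shZnf148 replicates carried a single lentiviral hairpin against ZNF148, so effects of that hairpin and of ZNF148 loss cannot be told apart. In both groups the virus was given for 48 h and cells were then kept for 24 h in 0.5 µg/mL puromycin, so both groups had been infected and drug-selected. RNA was compared between the groups to ask which transcripts depend on ZNF148.

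AP-1 is a dimer of basic leucine zipper proteins. A FOS-type subunit needs a JUN-type partner to bind DNA, whereas JUN proteins can also pair with each other, and the choice of subunits shapes which genes are switched on. FOS, FOSB, JUN, JUNB and EGR1 belong to the immediate early genes, whose transcription starts within minutes of a growth factor or stress signal and fades soon after. FOSL1 is stabilised and kept high by sustained RAS and MAPK signalling and is a known driver of the mesenchymal, invasive state of triple-negative breast cancer cells. EGR1 is a zinc finger factor that, like ZNF148, binds GC-rich DNA.

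The regulatory DNA of EGR1 and JUN is shown because their log2 fold changes had opposite signs, although JUN did not pass, and they carry different control elements. Whether these elements bear on the changes was not tested. The 250 bases before each RefSeq start in GRCh38.p14 are given 5′ to 3′ along the gene. In EGR1 (chr5:138465229-138465478, plus strand) the capitals mark the CArG boxes, the element bound by serum response factor. In JUN (chr1:58784048-58784297, minus strand) they mark the AP-1-like element TGACATCA.
EGR1: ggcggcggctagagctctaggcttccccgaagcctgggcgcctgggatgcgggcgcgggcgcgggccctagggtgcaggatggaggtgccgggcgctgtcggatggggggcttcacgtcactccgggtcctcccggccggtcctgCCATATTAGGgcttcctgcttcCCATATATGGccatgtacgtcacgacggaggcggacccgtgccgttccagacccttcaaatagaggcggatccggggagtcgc
JUN: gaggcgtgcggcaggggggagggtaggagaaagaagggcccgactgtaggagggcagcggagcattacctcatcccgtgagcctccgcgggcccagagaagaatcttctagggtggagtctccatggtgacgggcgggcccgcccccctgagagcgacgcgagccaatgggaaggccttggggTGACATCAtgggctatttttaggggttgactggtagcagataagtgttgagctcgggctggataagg

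Promoters of 7 members were present in the RefSeq set (all but FOSL1, BATF3 and IER3). Both strands of these 250 bases were searched. A CArG box was found only in EGR1 of the 7, against 1.16% of all 35116 promoters, with its boxes at -105 to -96 and -83 to -74 from the start. TGACATCA was found only in JUN of the 7, at -67 to -60, against 2.37% of all promoters. The cyclic AMP response element TGACGTCA was found only in JUND of the 7 (1.65% of all promoters). The shorter motif TGACGT was found in 5 of the 7, and all but 1 of its JUND matches lie within the whole element, against 7.10% of all promoters. The canonical AP-1 site TGANTCA was in none of the 7 windows (6.57% of all promoters), and the EGR site GCGNGGGCG was found only in EGR1 of the 7 (8.41%). A run GGGGG, searched because ZNF148 favours G-rich or C-rich DNA, was in all 7, but also in 55.3% of all promoters. These matches describe letters in the reference and are not measured binding. Elements farther from the start, or with other letters, were not searched. A member without a match here may therefore still carry the element.

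ZNF148 itself was at 3.72, 4.36 and 4.30 FPKM in the shControl samples and at 0.914, 0.282 and 0.834 FPKM in the shZnf148 samples (replicates 1 to 3), so the targeted transcript was lower in every library labelled shZnf148, at 16.4% of the control mean. Sequencing depth is not given by FPKM. From the steps between low values, the depth of the libraries was between 0.806 (shZnf148 replicate 3) and 1.13 times that of shControl replicate 1. The FPKM summed over all rows was 497730 to 507312 in shControl and lower, at 469594 to 488173, in shZnf148. The part of this difference in the results was not tested. VIM, CD44, EGFR and AXL, taken as genes that MDA-MB-231 cells should express, were present in all samples, with a summed level of 2725 to 2845 FPKM in shControl and 2235 to 2310 FPKM in shZnf148; CD44, EGFR and AXL passed lower. Among 10 luminal and epithelial markers, taken as genes that should be low or absent, ESR1 was listed at 0 throughout. CDH1, PGR and FOXA1 stayed below the 1 FPKM limit. The joined row of KRT17 and KRT19, KRT8, KRT18, EPCAM, GATA3 and ERBB3 were detected, and the keratins were not low. In shControl the means were 158 FPKM for KRT8, 162 FPKM for KRT18 and 265 FPKM for the joined row, against 66.6 FPKM for EGFR. Those of EPCAM, GATA3 and ERBB3 were 10.6, 8.22 and 3.10 FPKM. The summed level of those 10 markers was 559 to 638 FPKM in shControl and 516 to 584 FPKM in shZnf148, and KRT18 passed lower. The part of these markers in the results was not tested.

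By level, FOSL1 stood far above the rest, at rank 144 of the table with a mean of 391 FPKM over the 6 samples. JUN (59.0 FPKM) and FOSL2 (51.2 FPKM) came next, followed by JUND (38.0 FPKM) and JUNB (24.0 FPKM). The ranges of JUN and FOSL2 overlapped over the 6 samples, as did those of FOSL2 and JUND. IER3 (5.49 FPKM), EGR1 (4.84 FPKM) and BATF3 (2.67 FPKM) were low, and the founding member FOS was lower still at 1.49 FPKM. FOSB, at 0.208 FPKM, was not tested.

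**Figure D1:**
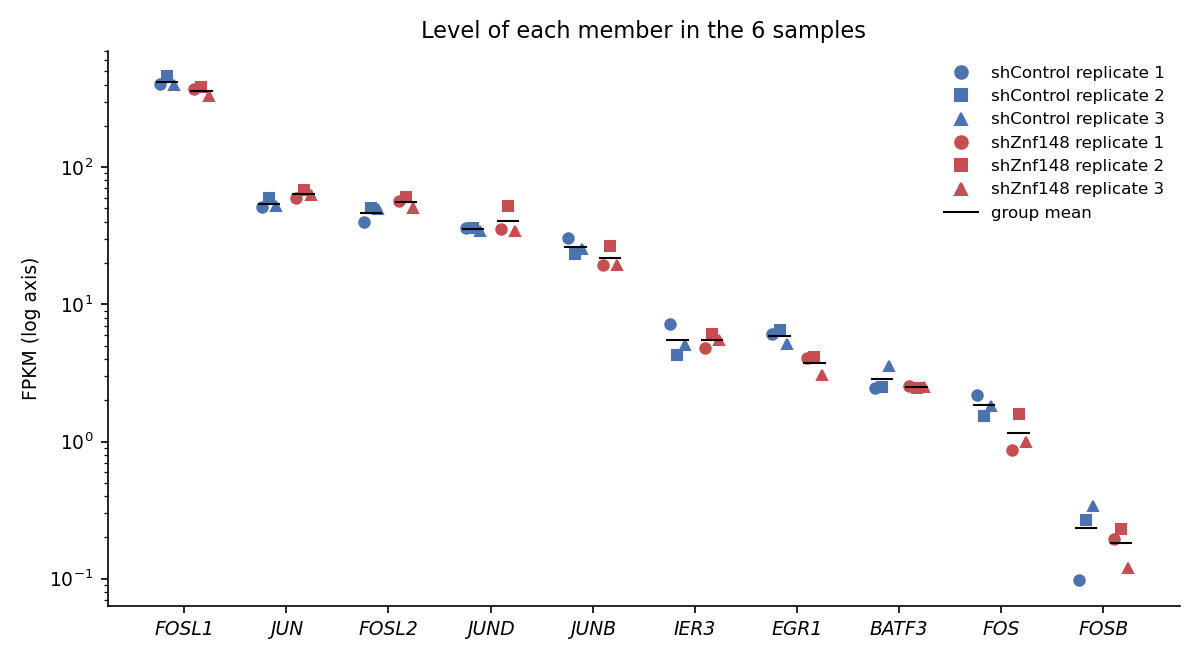
FPKM of each member (log axis) in 3 shControl (blue) and 3 shZnf148 (red) replicates, ordered by mean level; each point is 1 sample and the bars are group means. FOSL1 lies well above all other members, and the blue and red points separate fully for FOSL1, JUN and EGR1.

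Of the 9 tested members, EGR1 alone passed at an adjusted p under 0.05 (limma on log2(FPKM + 1), Benjamini-Hochberg over 11777 rows). This is 1 member lower and 0 higher, where 8.13% of all tested rows passed lower and 5.46% passed higher. At an unadjusted p under 0.05 in limma, 1 member was higher (JUN) and 2 were lower (EGR1 and FOSL1), where 16.0% of all tested rows were higher and 17.8% lower. None of the 9 also exceeded a 1.5-fold change, which 3.66% of all rows did downward and 1.83% upward with an adjusted p under 0.05. The median log2 fold change was -0.12 over the 9 members and 0.01 over all tested rows. In 1 member the shZnf148 values all lay above the shControl values (JUN) and in 2 they all lay below (EGR1 and FOSL1), as was the case for 20.0% and 21.0% of all tested rows. With 3 samples against 3, an exact two-sided permutation test of a single gene cannot give p below 0.1. The labels do not say whether the replicates were separate cultures, so p-values measure the spread between these samples only.

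EGR1 lies on chromosome 5 of GRCh38 from 138465479 to 138469303 (plus strand, GENCODE release 44). Its level was 6.08, 6.53 and 5.11 FPKM in the shControl samples and 4.06, 4.16 and 3.07 FPKM in the shZnf148 samples, here and throughout in the order of replicates 1, 2 and 3. Every shZnf148 value was below every shControl value. The mean fell from 5.91 ± 0.728 to 3.76 ± 0.599 FPKM (SD, n = 3 each), to 63.7% of control. On the log2 scale the change was -0.54 (standard error 0.13, 95% interval -0.86 to -0.22, adjusted p = 0.0447 from limma; exact permutation p = 0.1). The call was close to the threshold. It was lost when any 1 of the samples except shZnf148 replicate 2 was left out (adjusted p from limma of up to 0.148, without shControl replicate 1), although the log2 fold change stayed between -0.62 and -0.43. Most calls over the whole table were lost too without shControl replicate 1. There 3 of all tested rows passed higher and 26 lower, against 643 and 957 with all samples. In these bulk samples, fewer cells expressing a gene and less RNA per cell cannot be told apart.

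No other EGR gene was expressed well enough to be tested. EGR2 averaged 0.276 FPKM in shControl and 0.117 FPKM in shZnf148, EGR3 averaged 0.0873 and 0.102 FPKM, and EGR4 averaged 0.0322 and 0.0676 FPKM. The corepressors that bind EGR proteins were tested, and neither passed. NAB1 had a log2 fold change of -0.15 (95% interval -0.39 to 0.10) and NAB2 of 0.02 (-0.38 to 0.42).

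Patterns of log2(FPKM + 1) over the 6 samples most like that of EGR1 were found in RABGAP1L (Pearson r = 0.996), PORCN (0.993) and HGS (0.992). A total of 95 rows had r over 0.95, and all points share the same 6 libraries in 2 groups, so this is a description only.

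FOSL1, on chromosome 11 from 65892049 to 65900573 (minus strand), was at 402, 462 and 399 FPKM in shControl replicates 1, 2 and 3. In shZnf148 replicates 1, 2 and 3 it was at 369, 382 and 329 FPKM. The groups did not overlap, with means of 421 ± 35.6 FPKM for shControl and 360 ± 27.6 FPKM for shZnf148 (SD, n = 3 each). FOSL1 did not pass (adjusted p = 0.130 from limma), with a log2 fold change of -0.22 (95% interval -0.44 to -0.01, standard error 0.09).

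FOSL2 encodes the other FOS-related antigen. Its main row was at 39.6, 50.5 and 49.4 FPKM in shControl and at 56.9, 60.7 and 50.4 FPKM in shZnf148. The lowest shZnf148 value, in replicate 3, lay just under the highest shControl value, so the groups overlapped. The log2 fold change was 0.27 (95% interval -0.01 to 0.54, adjusted p = 0.158 from limma), and 0.16 without shControl replicate 1. A weaker row with the same symbol, at 3.69 to 10.1 FPKM, had a log2 fold change of 0.15 (adjusted p = 0.738). How the authors' counting divided reads between these rows is not known.

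FOS, the prototype of the family, was at 2.18, 1.53 and 1.80 FPKM in shControl and at 0.863, 1.59 and 0.997 FPKM in shZnf148. Replicate 2 of shZnf148 fell within the control range, and the other 2 shZnf148 samples lay below it. The log2 fold change was -0.41 (95% interval -0.82 to 0.00, adjusted p = 0.148 from limma). At this level the pseudocount of 1 FPKM understates a change, and with 0.1 FPKM the log2 fold change was -0.66. FOSB ranged from 0.0971 to 0.338 FPKM in shControl and from 0.120 to 0.232 FPKM in shZnf148.

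JUN, a partner of FOS-type subunits in AP-1, lies on chromosome 1 from 58776845 to 58784048 (minus strand). It was at 51.0, 59.4 and 52.5 FPKM in the shControl samples, against 60.0, 68.6 and 62.2 FPKM in the shZnf148 samples. All shZnf148 values lay above the controls, by a small margin between shControl replicate 2 and shZnf148 replicate 1. Mean levels were 54.3 ± 4.51 FPKM in shControl and 63.6 ± 4.46 FPKM in shZnf148 (SD, n = 3 each). JUN did not pass (adjusted p = 0.117 from limma), with a log2 fold change of 0.23 (95% interval 0.02 to 0.43, standard error 0.08).

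JUNB often restrains JUN in proliferating cells. It was at 30.2, 23.2 and 25.3 FPKM in shControl and at 19.3, 26.6 and 19.2 FPKM in shZnf148, so shZnf148 replicate 2 again fell among the controls. Its log2 fold change was -0.27 (95% interval -0.63 to 0.09, adjusted p = 0.259 from limma), against -0.42 without shZnf148 replicate 2 and -0.17 without shControl replicate 1. JUND, the most constitutive JUN protein, was at 35.8, 35.9 and 34.3 FPKM in shControl and at 35.6, 52.5 and 34.1 FPKM in shZnf148. The high value was again in shZnf148 replicate 2. The log2 fold change of JUND was 0.17 (95% interval -0.21 to 0.55) with that sample and -0.020 without it.

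BATF3 encodes a small zipper protein that pairs with JUN and is best known from dendritic cells. It was at 2.45, 2.52 and 3.57 FPKM in shControl and at 2.55, 2.45 and 2.51 FPKM in shZnf148, with a log2 fold change of -0.12 (95% interval -0.44 to 0.20). IER3 is an immediate early gene linked to survival and ERK signalling. It had 6 rows, of which 5 were listed at 0 in all samples. The remaining row was at 7.25, 4.27 and 5.04 FPKM in shControl and at 4.79, 6.10 and 5.51 FPKM in shZnf148. Its log2 fold change was 0.01 (95% interval -0.42 to 0.43). The several rows leave its level uncertain, since reads from identical copies may have been split or dropped.

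The spread within groups also differed between members. The residual SD of log2(FPKM + 1) was 0.107 for JUN and 0.116 for FOSL1, below the median of 0.132 over all tested rows. It was 0.257 for IER3, 0.239 for JUND, 0.225 for JUNB and 0.213 for FOS, and these lay between the 79.4 and 86.8 percentiles of all tested rows.

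**Figure D2:**
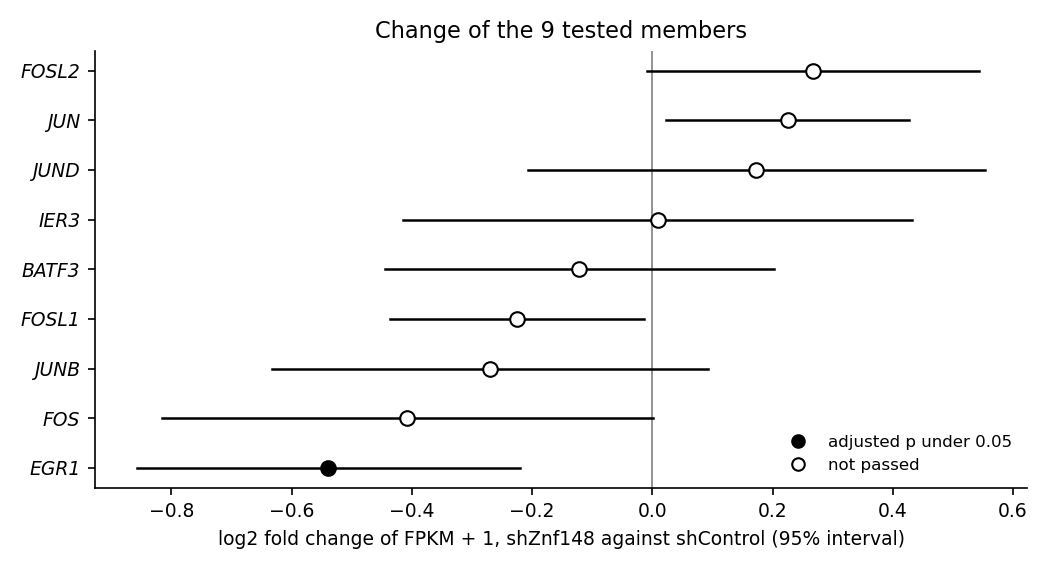
Log2 fold change of FPKM + 1 in shZnf148 against shControl for the 9 tested members (points) with 95% intervals (lines, limma, n = 3 per group); filled points passed at an adjusted p under 0.05. EGR1 is the single filled point, at -0.54, and the intervals of FOSL1 and JUN lie just to either side of 0.

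Because FPKM is scaled to length, levels can be set against each other within a sample. FOSL1 made up 90.6%, 89.8% and 88.6% of the summed FOS, FOSB, FOSL1 and FOSL2 level in shControl replicates 1, 2 and 3. In shZnf148 replicates 1, 2 and 3 FOSL1 made up 86.4%, 85.9% and 86.5%. The sum held only the main FOSL2 row, and adding the weaker row would lower every FOSL1 share. The groups did not overlap (means of 89.7 ± 1.02% and 86.3 ± 0.291%, SD, n = 3 each; exact two-sided permutation p = 0.1, the smallest possible). Single rows separated in this way in 20.0% (higher) and 21.0% (lower) of all tested rows, and no such rate was worked out for shares. FOSL2 held nearly all of the remainder, so its share mirrors that of FOSL1 and is not a separate result. It was 9.90 ± 1.03% in shControl and 13.4 ± 0.216% in shZnf148 (SD, n = 3 each). FOS held at most 0.491% of the family in any sample.

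In the JUN family, JUN held 46.8 ± 3.28% of the summed level in shControl and 50.8 ± 3.90% in shZnf148 (SD, n = 3 each), with overlapping groups. JUNB held between 19.6% and 25.8% in shControl and between 16.7% and 18.0% in shZnf148, without overlap (exact permutation p = 0.1). As for FOSL1, how often shares separate in this way was not worked out. The ratio of FOSL1 to JUN, a pair chosen after the values were seen, was 7.89, 7.78 and 7.60 in shControl and 6.14, 5.57 and 5.29 in shZnf148. These ratios are of transcript levels, and protein was not measured here.

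**Figure D3:**
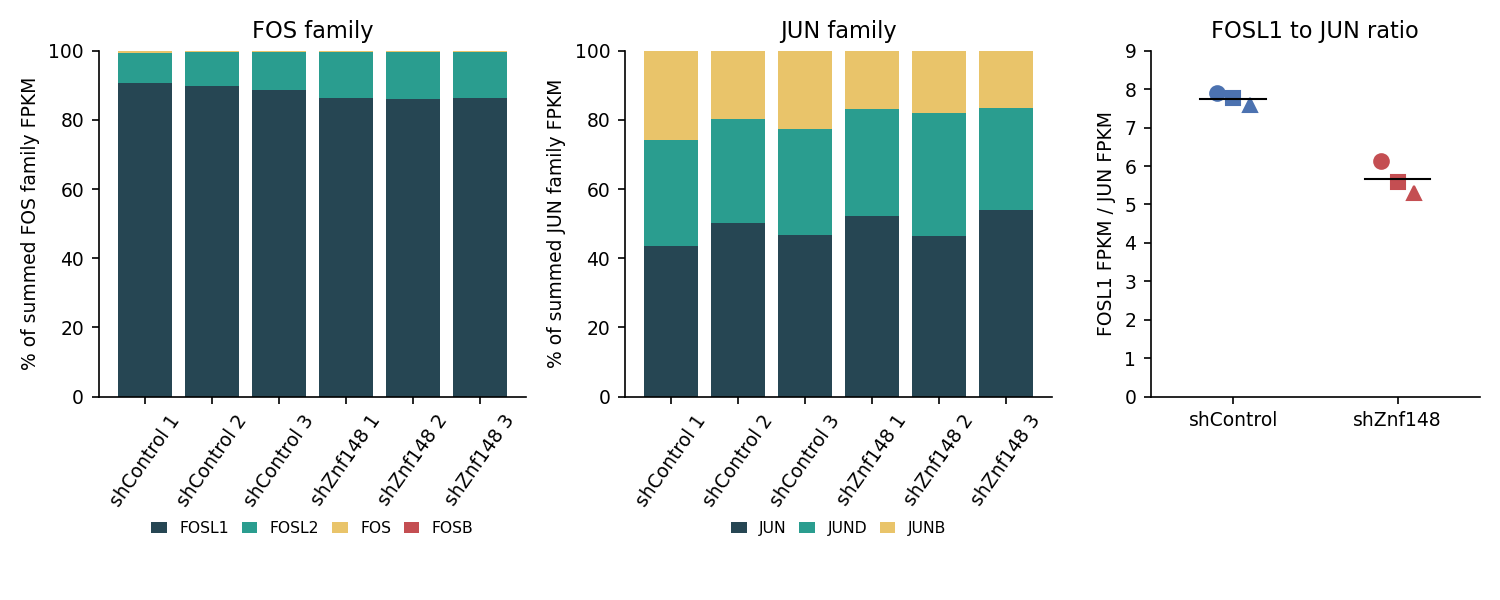
Share of each member in the summed FPKM of the FOS family and of the JUN family (stacked bars, percent) and the ratio of FOSL1 to JUN FPKM (points, with bars for group means) in the 3 shControl and 3 shZnf148 samples. FOSL1 fills most of each FOS bar, and the mean ratio is 7.75 in shControl and 5.67 in shZnf148.

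Among 11 tested factors of other AP-1-related zipper families, 3 passed lower and 1 passed higher (27.3% and 9.09%, against 8.13% and 5.46% of all tested rows), with a median log2 fold change of -0.04. BACH1, a repressor of antioxidant genes that dimerises with small MAF proteins, fell by 0.56 in log2 units (adjusted p = 0.0172 from limma). The small MAF gene MAFF fell by 0.46 (adjusted p = 0.0273). ATF3, a stress-induced factor that can pair with JUN, was at 5.78, 6.38 and 4.65 FPKM in shControl and at 3.05, 4.06 and 2.81 FPKM in shZnf148, a fall of 0.62 (adjusted p = 0.0441). NFIL3, a repressor of the same fold, rose by 0.61 (adjusted p = 0.0411). All 4 calls were lost when any 1 shControl replicate or shZnf148 replicate 1 was left out, with adjusted p-values of up to 0.147 (ATF3, without shControl replicate 1). Only 3 of all tested rows passed higher and 26 lower without shControl replicate 1, so such losses are not particular to these genes.

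Of 15 tested immediate early genes outside the members, 5 passed lower (33.3%, against 8.13% of all tested rows) and 0 higher in limma (against 5.46%), with a median of -0.19. At an unadjusted p under 0.05, 7 were lower (against 17.8% of all tested rows) and 0 higher (against 16.0%). These lists too were chosen with earlier results known, so their counts are descriptions. CYR61, a secreted matrix protein now called CCN1, was at 907, 745 and 830 FPKM in shControl and at 405, 329 and 453 FPKM in shZnf148. It fell by 1.07 in log2 units (adjusted p = 0.0111 from limma). DUSP1, a phosphatase that switches off MAP kinases, fell by 0.82 (adjusted p = 0.0195), the orphan receptor NR4A1 by 0.69 (adjusted p = 0.0250) and KLF6 by 0.41 (adjusted p = 0.0162). CTGF, now called CCN2, completed the 5, fell by 1.05 (adjusted p = 0.0372) and was named after its value was seen. KLF2 (0.20, adjusted p = 0.167), IER2 (0.24, adjusted p = 0.192) and SRF, which binds CArG boxes (0.19, adjusted p = 0.277), did not pass. All 5 calls were lost without shControl replicate 1 and without shControl replicate 3. Nearly all rows lost their calls in these fits. Only 3 of all tested rows passed higher and 26 lower in the first, and 3 higher and 19 lower in the second. Without shControl replicate 2, 170 of all tested rows still passed lower. There CTGF (adjusted p = 0.103 from limma) and NR4A1 (adjusted p = 0.0526) also lost their calls, while KLF6, CYR61 and DUSP1 kept theirs.

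Upstream of FOS and JUN, 21 kinases and factors were tested, of which 2 passed higher (9.52%, against 5.46% of all tested rows) and 1 lower (4.76%, against 8.13%), with a median log2 fold change of -0.031. The row that joins MAP3K1, a kinase of the JNK cascade, with SETD9 went up from 6.85 ± 0.439 to 12.0 ± 0.295 FPKM (SD, n = 3 each), or by 0.72 in log2 terms (adjusted p = 0.00955 from limma), which cannot be assigned to 1 of these genes. MAPK14, the p38 alpha kinase, rose by 0.26 (adjusted p = 0.0391). ELK3, a ternary complex factor that acts with SRF, fell by 0.31 (adjusted p = 0.0424). ELK1, its activating relative, had a log2 fold change of 0.33 and did not pass (adjusted p = 0.0637). The joined MAP3K1 row lost its call without shControl replicate 1 or 3, MAPK14 whenever a sample other than shZnf148 replicate 2 was left out, and ELK3 whichever sample was left out. Without shControl replicate 1 only 3 of all tested rows passed higher and 26 lower.

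Genes often cited as AP-1 targets went in both directions. Of 19 tested, 7 passed lower (36.8%, against 8.13% of all rows) and 3 passed higher (15.8%, against 5.46%), with a median of -0.30. Since the list was chosen with earlier results of these data known, its count is a description. MMP1, the interstitial collagenase whose promoter is the textbook AP-1 target, was at 19.7, 15.6 and 14.7 FPKM in shControl and at 4.56, 3.03 and 4.28 FPKM in shZnf148. It fell by 1.84 in log2 units (standard error 0.16, adjusted p = 0.00657 from limma). The cytokine IL6 was at 32.6, 28.1 and 28.4 FPKM in shControl and at 14.0, 12.5 and 12.2 FPKM in shZnf148, a fall of 1.14 (adjusted p = 0.00475). The chromatin protein HMGA1 fell by 0.55 (adjusted p = 0.0184) and the hyaluronan receptor CD44 by 0.46 (adjusted p = 0.0185). IL8, PLAU and AXL made up the 7 and were named after their values were seen. With quantile normalization 4 of the 7 did not pass in limma. These were HMGA1 (adjusted p = 0.0756), CD44 (adjusted p = 0.0594), PLAU (adjusted p = 0.0810) and AXL (adjusted p = 0.0625). MMP1 and IL6 passed whichever sample was left out, and they were the 2 that passed lower when any 1 shControl replicate was left out.

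In the other direction, S100A2, a calcium-binding protein, went from 10.3 ± 2.70 up to 28.4 ± 1.12 FPKM (SD, n = 3 each), or by 1.41 in log2 terms (adjusted p = 0.0103 from limma). The cyclin gene CCND1 rose by 0.58 (adjusted p = 0.0169) and the EGF receptor ligand HBEGF by 0.33 (adjusted p = 0.0324). LIF, a cytokine of the IL6 family, had a log2 fold change of 0.28 and did not pass (adjusted p = 0.168). None of the 3 higher calls was kept without shControl replicate 1 or without shControl replicate 3. In each of these fits only 3 of all tested rows passed higher.

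**Figure D4:**
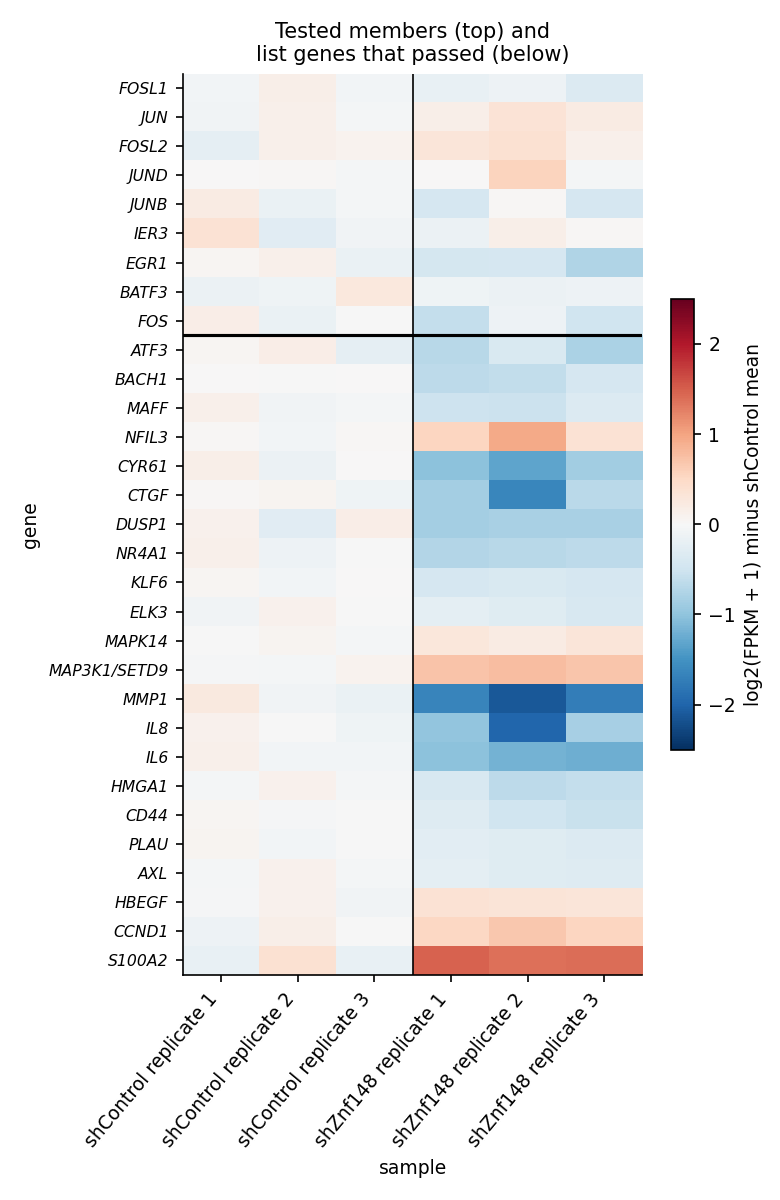
Difference of log2(FPKM + 1) from the shControl mean (colour, limits at -2.5 and 2.5) in each of the 6 samples (columns) for the 9 tested members (above the line) and the 22 list genes that passed at an adjusted p under 0.05 (below it). The members are pale throughout compared with CYR61, MMP1, IL6 and S100A2, and shZnf148 replicate 2 stands out for JUND.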

How the data were processed

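RNA from 6 MDA-MB-231 samples (3 shControl, 3 shZnf148) was sequenced. The authors deposited 1 table of normalised FPKM values with 24108 rows and no coordinates, and no value column lacked a sample. The submitters' processing notes name bcl2fastq 2.17.1.14, TopHat2 2.0.14, Cufflinks 2.2.1 and Cuffnorm 2.2.1 with hg18 and hg19, whereas the study's methods describe Salmon, GRCh38 and DESeq2, so the build behind the table is uncertain. Depth in reads is unknown from FPKM, and no count test was run.

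Testing was limited to rows averaging 1 FPKM or more, and was done with limma 3.58.1 (R 4.3.3, trended empirical Bayes) on log2(FPKM + 1), with Benjamini-Hochberg adjustment over 11777 rows. Fold changes on this scale understate changes of low genes. The code was tested on simulated data. A symbol with several rows was represented by its most highly expressed one. Exact two-sided permutation tests were run for single values. Tables and plots used Python 3.11.15, numpy 2.4.6, pandas 2.3.3 and matplotlib 3.10.9. Promoters came from RefSeq and gene positions from GENCODE release 44.

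The members and gene lists were chosen with earlier results of these data known. Some genes of these lists are not reported here and were left out of the lists' counts and sums. Named were all members, from each list up to 4 genes per direction in order of p (CTGF, IL8, PLAU and AXL were added after their values were seen), the markers, and the 3 rows most like EGR1. Alternatives covered the filter, pseudocount, scaling, empirical Bayes settings, summed rows, a replicate block and leaving out each sample.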

Additional observations from a re-analysis of the deposited data

How the results depend on the processing

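Directions of EGR1, FOSL1, FOSL2, JUN, JUNB and FOS were kept under each alternative in which they were tested. EGR1 passed in 8 of 15 alternatives (adjusted p from 0.0367 to 0.148). Without a filter, 401 rows passed higher, 0 members passed lower and 4 AP-1 targets passed lower. With a mean of at least 5 FPKM, EGR1, FOS and BATF3 were not tested and 0 members passed lower. A pseudocount of 5 FPKM left 76 rows higher and 204 lower past 1.5-fold. Quantile normalization left 3 AP-1 targets passing lower (MMP1, IL6 and IL8). Leaving out 1 sample at a time, 3 to 628 rows passed higher and 19 to 1092 lower, of which 3 to 209 and 19 to 393 exceeded 1.5-fold. In the same fits 0 to 1 members passed lower, 0 to 3 AP-1 targets passed higher and 2 to 9 passed lower. The lowest counts came without shControl replicate 1 (3 higher, 26 lower) and without shControl replicate 3 (3 higher, 19 lower), against 643 and 957 with all samples. Counts also moved without shControl replicate 2 (69 and 170), shZnf148 replicate 1 (82 and 257) and shZnf148 replicate 3 (383 and 611). The log2 fold changes of IER3, BATF3 and JUND, at 0.01, -0.12 and 0.17 with all samples, changed sign in some fits. IER3 was at -0.13 without shControl replicate 2, -0.033 without shControl replicate 3 and -0.061 without shZnf148 replicate 2 (range -0.13 to 0.19). BATF3 reached 0.0085 without shControl replicate 3 (range -0.19 to 0.0085), and JUND -0.020 without shZnf148 replicate 2 (range -0.020 to 0.28). The cause of these moves was not tested.

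Groups share replicate numbers, but deviations of same-numbered samples correlated at only 0.00104, -0.0882 and 0.0304, so the numbers were not taken to pair the samples. With the replicate block 130 rows passed higher and 271 lower, 99 and 216 of them past 1.5-fold. The block left 0 members passing lower (EGR1 adjusted p = 0.0589 from limma) and 3 AP-1 targets passing lower.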
